A study of Homo sapiens with 16 samples.

Results

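Matrix metalloproteinases (MMPs) and their tissue inhibitors (TIMPs) were examined in bladder cancer (BC) cell lines treated with CM-1758, an inhibitor of histone deacetylases. The 10 members were chosen by gene symbol, 6 proteinases (MMP1, MMP2, MMP7, MMP9, MMP13 and MMP14) and 4 inhibitors (TIMP1, TIMP2, TIMP3 and TIMP4), out of 35993 genes in the count table. All 10 had a row, and all 10 were among the 21297 genes that passed the filter on low counts. The established human BC lines 253J, J82, RT112 and TCCSUP, all labelled wild type, were given CM-1758 for 48 h at the dose that inhibits growth by 50% in that line, or DMSO at 0.01% as the vehicle. The legends of the study's RNA-seq figures call the controls untreated. Each of the 8 groups (line and treatment) held 2 RNA-seq libraries, 16 in all. The dose therefore differed between lines, and TCCSUP was kept in EMEM whereas the other lines were kept in DMEM, so line, dose and, for TCCSUP, medium cannot be told apart. Each line stands for the tumor of 1 person. Per the study's methods, the libraries of a group are independent biological replicates of a line.

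MMPs are zinc-dependent endopeptidases that are made as inactive precursors and cut collagens and other proteins of the extracellular matrix. TIMPs are small secreted proteins that block the active site of MMPs, and TIMP2 also bridges MMP14 and pro-MMP2 at the cell surface, where pro-MMP2 is cut to its active form. In BC, MMPs have mostly been studied for their part in the invasion of the bladder wall, and both tumor cells and stromal cells can make them. RNA counts report neither secretion nor activation of these enzymes.

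Library totals ran from 22506431 to 32537104 counts, and the common biological coefficient of variation was 0.153. With library sizes scaled by total alone instead of TMM, the median log2 fold change of all genes moved by 0.145 to 0.311, and values below are relative to TMM scaling. Epithelial marker genes (EPCAM, CDH1, KRT7, KRT8, KRT18 and KRT19) were counted in every group, and their summed level per library in TCCSUP was 1230 to 1360 CPM (counts scaled to library size) in control and 369 to 467 CPM in treated cells. Of 8 urothelial markers, 6 were at 0 in 253J control cells and 5 at 0 in J82 control cells, against 1 in RT112, where their summed level was 1820 to 2070 CPM in control and 730 to 765 CPM in treated cells. Of 6 fibroblast markers (DCN, LUM, PDGFRA, PDGFRB, COL6A3 and THY1), 0 were at 0 in TCCSUP control cells, where their summed level was 1790 to 1930 CPM, and it was 423 to 439 CPM after treatment. In RT112 3 of these 6 were at 0 in control cells and 1 was above 1 CPM there, against 5 in treated cells, so that a single gene carried the control sum, which was 1330 to 1360 CPM in control and 841 to 922 CPM in treated cells. These are cultures of a single line, and the part of such shifts in the results below was not tested.

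Upstream sequences are shown for MMP7, MMP14, TIMP1 and TIMP3, because they differ in the matches they hold. Chosen in this way, they do not relate the level of a gene to its matches. RefSeq promoter sequence (GRCh38.p14) was at hand for MMP7, MMP14, TIMP1, TIMP3 and TIMP4. The 250 bases before the start of each gene were searched on both strands for TGAGTCA, the letters of the AP-1 site, for TATAAA, the letters of the core promoter element, and for GGGCGG, the letters of the GC box, which were held by 4.2%, 10.7% and 42.6% of the windows of all 35116 promoters. MMP7 lies on the minus strand at chr11:102530748-102530997, MMP14 on the plus strand at chr14:22836335-22836584, TIMP1 on the plus strand at chrX:47582186-47582435 and TIMP3 on the plus strand at chr22:32801455-32801704. The sequences run 5′ to 3′ on the strand of the gene and end at the base before its start, with matches in capitals.
MMP7: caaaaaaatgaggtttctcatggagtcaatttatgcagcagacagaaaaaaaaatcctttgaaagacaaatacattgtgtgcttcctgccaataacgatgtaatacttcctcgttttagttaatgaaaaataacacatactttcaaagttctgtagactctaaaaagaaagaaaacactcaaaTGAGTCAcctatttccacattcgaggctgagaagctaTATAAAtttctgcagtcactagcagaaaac
MMP14: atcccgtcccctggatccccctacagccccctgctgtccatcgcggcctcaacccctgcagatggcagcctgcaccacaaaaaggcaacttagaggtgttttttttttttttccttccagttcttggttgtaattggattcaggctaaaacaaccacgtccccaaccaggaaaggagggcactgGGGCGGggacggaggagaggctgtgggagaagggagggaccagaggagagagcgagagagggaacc
TIMP1: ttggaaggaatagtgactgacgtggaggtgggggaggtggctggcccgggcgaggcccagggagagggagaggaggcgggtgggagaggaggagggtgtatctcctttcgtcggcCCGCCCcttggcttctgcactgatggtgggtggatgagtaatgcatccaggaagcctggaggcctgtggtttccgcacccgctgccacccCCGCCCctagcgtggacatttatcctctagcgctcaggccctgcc
TIMP3: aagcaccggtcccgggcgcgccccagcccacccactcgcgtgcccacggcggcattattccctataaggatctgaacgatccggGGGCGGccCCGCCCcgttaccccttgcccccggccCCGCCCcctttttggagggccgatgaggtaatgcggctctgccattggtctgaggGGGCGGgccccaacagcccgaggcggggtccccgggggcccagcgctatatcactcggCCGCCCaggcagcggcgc
The MMP7 window held 1 AP-1 match, 67 to 61 bases before the start, and 1 TATAAA match, 30 to 25 bases before it, and no GC box. The MMP14 and TIMP4 windows each held 1 GC box, that of TIMP1 held 2 and that of TIMP3 held 5. None of these had an exact match to TGAGTCA or TATAAA. Of the bases, G and C made up 33.6% in MMP7, 56.8% in MMP14, 62.8% in TIMP4, 64.8% in TIMP1 and 72.4% in TIMP3, which also had 26 CpG dinucleotides against 3 in MMP7. A match is a description of letters and does not show that a factor binds there. Variants of these letters, such as tgagtaa in the TIMP1 window, were not searched. The lack of a match therefore does not show that an element is absent.

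Before treatment, the lines differed in every member. The control level differed between lines for 10 of 10 members in an F test (adjusted p from edgeR's quasi-likelihood test, largest for MMP9 at 0.0251), beside 78.8% of all genes tested. Per kilobase of exon, TIMP1 was the highest member in 253J control cells (106 CPM per kb) and TIMP3 in J82 (58.6 CPM per kb). MMP14 led in RT112 (113 CPM per kb), and TIMP3 led in TCCSUP (180 CPM per kb), followed there by MMP14 (151 CPM per kb). TIMP3 and TIMP4 were at 0 counts in all 4 253J libraries, which allows up to 0.101 to 0.119 CPM per library for counting error alone.

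**Figure D1:**
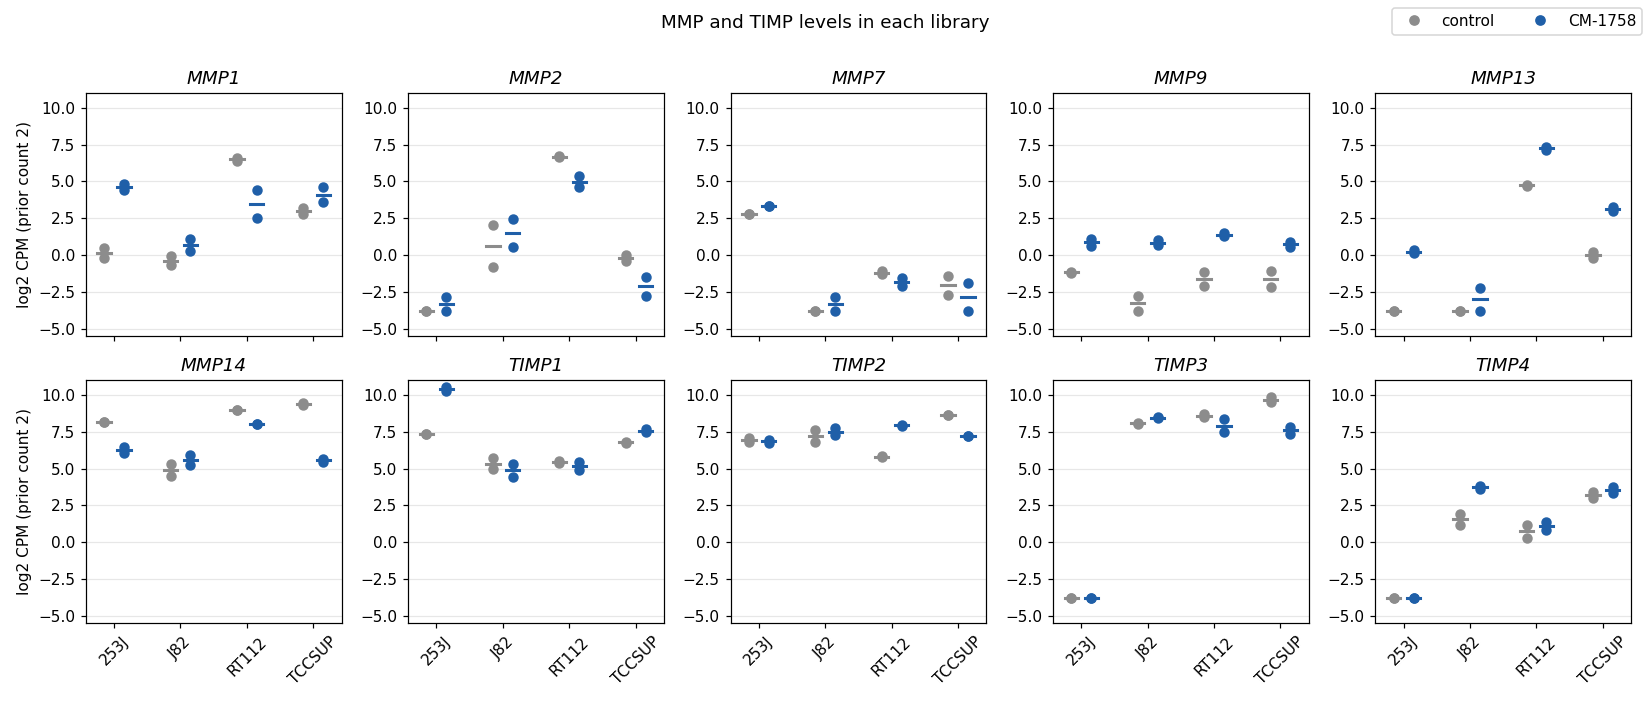
Level of each gene in each of the 16 libraries, as log2 CPM with a prior count of 2, by cell line. Each point is 1 library, gray for control and blue for CM-1758, and each bar is the mean of the 2 libraries. MMP9 is low in every control and higher in all treated groups, TIMP3 and TIMP4 lie at the floor in 253J, and MMP14 falls furthest in TCCSUP.

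CM-1758 changed these genes in different directions in different lines. In bulk RNA, fewer expressing cells and less RNA per cell cannot be told apart. In 253J, where 7 of the 10 members had a group mean above the floor of 3 counts, 4 of 10 were upregulated and 1 was downregulated, beside 28.8% and 22.4% of all genes. In J82, 3 of 10 members, 8 of them above the floor, were upregulated and 0 downregulated, beside 24% and 18.5% of all genes. In RT112, 3 of 10 rose and 3 fell, beside 27.4% and 20.2%. In TCCSUP, 4 of 10 rose and 3 fell, beside 32% and 22.1%. At the study's stricter threshold, a log2 fold change above 2 or below -2 with an adjusted p under 0.01, 4 members passed in each of 253J, RT112 and TCCSUP, beside 12.9%, 12.8% and 17.5% of all genes, and 2 passed in J82, beside 10.1%. The count was 3 in 253J without either of its control libraries, and 3 in TCCSUP with library size alone or without any 1 of its libraries. The median log2 fold change over the 10 members, with those under the floor set to 0 and MMP13 in 253J at its bound, was 0.28 in 253J and 0.47 in J82, beside 0.10 and 0.05 over all genes tested. It was -0.44 in RT112 and -0.30 in TCCSUP, beside 0.12 and 0.20.

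Among the members, MMP9 was the only one upregulated in all 4 lines, a pattern held by 6.69% of all genes tested, and 0 of 10 were downregulated in all 4, a pattern held by 6.01%. MMP1, MMP14 and TIMP2 rose in at least 1 line and fell in another, as did 12.9% of all genes. The effect of treatment differed between lines for 7 of 10 members (F test of the interaction, edgeR, adjusted p under 0.05), beside 51.9% of all genes. These were MMP1, MMP13, MMP14, TIMP1, TIMP2, TIMP3 and TIMP4. That of MMP13 rests on 253J, where both control libraries were at 0 and the fold is only bounded from below.

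**Figure D2:**
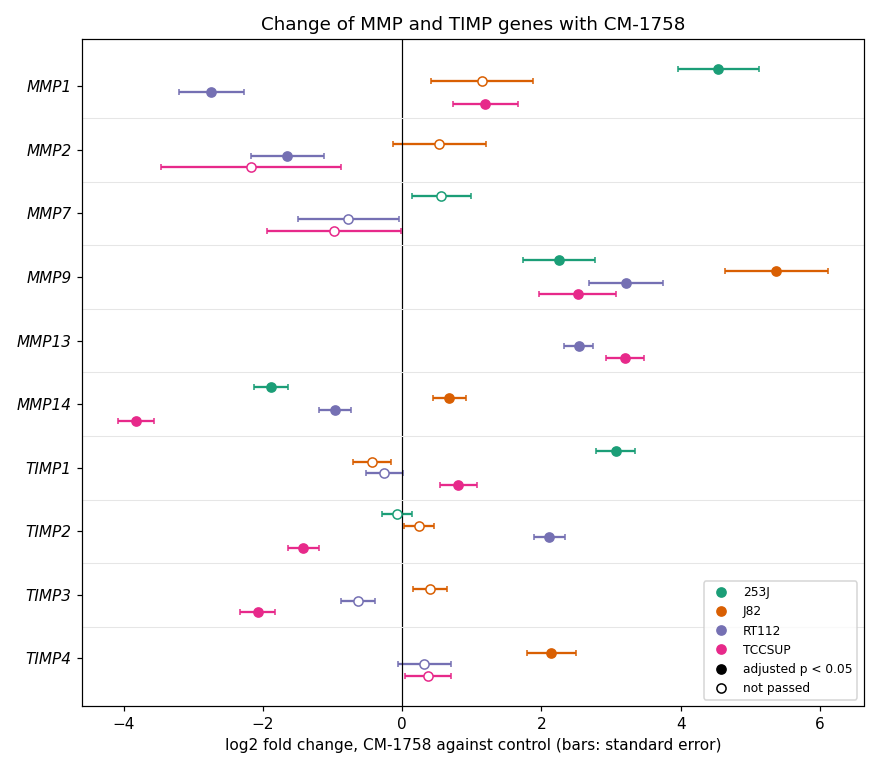
Log2 fold change of each gene with CM-1758 in each line, with a standard error derived from the test statistic. Filled points passed an adjusted p of 0.05 and open points did not. Genes with 0 counts in both libraries of a group are left out, such as MMP13 in 253J and J82. MMP9 lies to the right of 0 in all 4 lines, and MMP1, MMP14 and TIMP2 have filled points on both sides.

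MMP1, the interstitial collagenase that cuts fibrillar collagens, moved in opposite directions in 253J and RT112. In 253J, counts were 22 and 35 in control libraries and 530 and 847 in treated libraries. In RT112 they were 2947 and 2454 in control and 141 and 557 in treated cells. Neither line's groups overlapped, and the treated RT112 libraries were themselves far apart (5.52 and 21.2 CPM). The log2 fold change was 4.54 (SE 0.58, adjusted p = 1.21e-05) in 253J and -2.74 (SE 0.47, adjusted p = 0.000226) in RT112. The 2 effects differed by 7.28 on the log2 scale (SE 0.75, adjusted p = 4.95e-06). RT112 had the highest control level (89.8 ± 9.33 CPM, SD, n = 2), above TCCSUP (8.0 ± 1.8 CPM), with 253J (1.07 CPM) and J82 (0.71 CPM) not separated (adjusted p = 0.577).

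After treatment the order of MMP1 levels was no longer resolved among 253J (24.8 ± 5.37 CPM), TCCSUP (18.3 ± 9.06 CPM) and RT112 (13.4 ± 11.1 CPM), whose neighbors had adjusted p of 0.427 and 0.429, and J82 lay below them at 1.58 CPM (adjusted p = 0.00023 against RT112). In TCCSUP, counts were 170 and 242 in control and 318 and 628 in treated cells, a log2 fold change of 1.19 (adjusted p = 0.0424). That call was lost without either control library (adjusted p = 0.202 and 0.0756) and without treated replicate 2 (0.413). J82 counts were 23 and 15 in control and 57 and 33 in treated cells, a log2 fold change of 1.15 that did not pass (adjusted p = 0.226). The pseudogene WTAPP1 lies across MMP1 on the other strand and had at most 22 counts in any library.

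MMP13, collagenase 3, which prefers type II collagen, rose in every line with enough counts to test. RT112 libraries had 780 and 801 counts in control and 3643 and 4257 in treated cells. TCCSUP libraries had 20 and 28 in control and 254 and 197 in treated cells. In 253J both control libraries were at 0, and the treated libraries had 26 and 35 counts. The groups did not overlap in these 3 lines. The log2 fold change was 2.53 (SE 0.20, adjusted p = 7.39e-07) in RT112 and 3.20 (SE 0.27, adjusted p = 8.16e-07) in TCCSUP, and these 2 effects were not separated (difference 0.67, SE 0.34, adjusted p = 0.174). In 253J the treated level was at least 9.89-fold higher than the floor of 3 counts per library (adjusted p = 1.35e-05). J82 had counts of 0 and 0 in control and 0 and 4 in treated cells, which is too few for a fold. The interaction p for MMP13 (0.0152) rests on 253J and no longer passed without either 253J control library. The 253J bound of 9.89-fold lay beside folds of 9.21 in TCCSUP and 5.79 in RT112. How far the 253J effect differed from these was therefore not measured.

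Treated levels of MMP13 ran in the order RT112, TCCSUP, 253J and J82 (152, 8.63, 1.11 and 0.068 CPM), and each neighbor differed from the next. In RT112, MMP13 and MMP1 traded places. Per kilobase of exon, MMP1 fell from 45.6 to 6.79 CPM per kb while MMP13 rose from 9.29 to 53.8 CPM per kb, so that MMP13 went from rank 7 to rank 3 of the 10 members there.

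MMP2, the gelatinase that is cut to its active form with the help of MMP14 and TIMP2, was abundant in RT112 alone. Counts in RT112 were 3077 and 3099 in control and 612 and 1088 in treated cells, a log2 fold change of -1.65 (SE 0.53, adjusted p = 0.0188), with no overlap of the groups. The call was lost with DESeq2 (adjusted p = 0.223) and without either control library or treated replicate 1 (0.068, 0.0767 and 0.143). J82 counts were 107 and 14 in control and 147 and 40 in treated cells, so that libraries of a group were further apart than the groups (log2 fold change 0.53, adjusted p = 0.562, and 2.68, adjusted p = 0.0161, without control replicate 1). TCCSUP had 17 and 24 against 2 and 7 counts (log2 fold change -2.18, SE 1.30, adjusted p = 0.173). 253J had 0 and 0 in control and 0 and 2 in treated cells.

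MMP9, the other gelatinase, which cuts denatured and basement membrane collagen, was near the floor in control cells and rose in all 4 lines. Counts in 253J were 10 and 10 in control and 53 and 44 in treated cells. Those in RT112 were 5 and 11 against 69 and 61, and those in TCCSUP were 10 and 4 against 47 and 36. J82 had 0 and 2 counts in control and 54 and 45 in treated cells. No treated library fell within the range of the controls of its line.

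The log2 fold change of MMP9 was 2.25 in 253J (SE 0.52, adjusted p = 0.00205), 3.21 in RT112 (SE 0.53, adjusted p = 0.000178) and 2.52 in TCCSUP (SE 0.55, adjusted p = 0.00134). With a block for replicate number in the edgeR fit, the 253J call was lost (log2 fold change 1.94, adjusted p = 0.0951). In J82 the ratio of the summed levels was 46.4, with an exact 95% counting interval of 12.5 to 388 (adjusted p = 4.22e-05). Treated levels lay close together, from 1.59 ± 0.24 CPM in TCCSUP to 2.51 ± 0.26 CPM in RT112, and no neighbors in that order differed (adjusted p from 0.36 to 0.954). Whether the effect differed between lines was not resolved (interaction adjusted p = 0.0715 with edgeR and 0.0485 with DESeq2). Antisense gene SLC12A5-AS1 lies across MMP9 and moved with it, with 0 to 12 counts in the control libraries and 7 to 65 in the treated ones. The libraries were stranded, but whether the counting used strand is not stated, so reads of MMP9 and of SLC12A5-AS1 cannot be told apart here.

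MMP7, matrilysin, a small MMP of epithelial cells without the hemopexin domain, was counted well in 253J only. Its counts there were 187 and 177 in control and 256 and 293 in treated cells. The groups did not overlap, and the log2 fold change of 0.56 (SE 0.42) did not pass (adjusted p = 0.292, and 0.0309 when 253J was fitted alone). In RT112 counts were 12 and 10 against 4 and 7, in TCCSUP 2 and 8 against 0 and 5, and in J82 0 and 0 against 0 and 2, with no passing change in any of these lines.

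MMP14 is the membrane-bound MT1-MMP that cuts collagen at the cell surface and activates pro-MMP2. Its mean level per kilobase of exon was the highest of the 6 proteinases in every group, and MMP14 fell in 3 lines. In treated TCCSUP replicate 2, however, MMP1 lay above MMP14 (12.5 against 11.4 CPM per kb). TCCSUP counts were 17645 and 16908 in control and 1172 and 1297 in treated cells. Counts in 253J were 7768 and 7579 against 2201 and 2011. RT112 had 15638 and 14674 against 6637 and 6763. The groups stood apart in all 3 lines, and the replicates were close to each other.

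The fall was 14.2-fold in TCCSUP (log2 fold change -3.83, SE 0.26, adjusted p = 3.47e-08), 3.69-fold in 253J (-1.88, SE 0.24, adjusted p = 1.11e-05) and 1.95-fold in RT112 (-0.96, SE 0.23, adjusted p = 0.00331). J82 had the lowest control level and went the other way, with 1027 and 619 counts in control and 1687 and 1125 in treated cells (log2 fold change 0.68, SE 0.24, adjusted p = 0.0307). Its groups overlapped in CPM. Replicate 1 was above replicate 3 in both J82 groups here and for MMP1, MMP2, TIMP1, TIMP2 and TIMP4. The J82 call for MMP14 was lost with J82 fitted alone (adjusted p = 0.134). The log2 fold change was 0.34 without control replicate 3 and 0.39 without treated replicate 1. All 6 pairs of lines differed in their MMP14 effect (adjusted p from 5.23e-07 to 0.0454), the furthest apart being TCCSUP and J82 by 4.50 on the log2 scale (SE 0.35).

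The span of MMP14 levels between lines narrowed. Control levels ran from 673 ± 35.9 CPM in TCCSUP, not separated from RT112 at 504 ± 9.90 CPM (adjusted p = 0.149), through 286 ± 6.38 CPM in 253J to 30.8 ± 11.7 CPM in J82. Treated levels ran from 259 ± 1.27 CPM in RT112 through 77.5 ± 13.7 CPM in 253J to J82 (49.2 CPM) and TCCSUP (47.5 CPM), which were not separated (adjusted p = 0.873). TCCSUP thus moved from the top of the order to its foot.

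TIMP1, a soluble inhibitor of most secreted MMPs that also acts as a growth factor, rose in 253J and, less firmly, in TCCSUP. Counts in 253J were 4487 and 4315 in control and 31509 and 44435 in treated cells, with no overlap. The log2 fold change was 3.07 (SE 0.28, adjusted p = 5.45e-07), and the level went from 164 ± 1.98 to 1374 ± 178 CPM, and at 892 CPM per kb of exon it was then the highest of any member in any group. TCCSUP had 2745 and 2898 counts in control and 5402 and 4625 in treated cells (log2 fold change 0.81, SE 0.26, adjusted p = 0.0176). The TCCSUP call was lost without either control library or treated replicate 1 (adjusted p from 0.0701 to 0.0861).

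In J82 and RT112 TIMP1 did not pass. J82 counts were 1358 and 868 in control and 1118 and 636 in treated cells (log2 fold change -0.43, adjusted p = 0.212, and 0.0485 and 0.0237 without control replicate 3 and without treated replicate 1). RT112 counts were 1290 and 1382 against 770 and 1162 (log2 fold change -0.26, adjusted p = 0.455). The 253J effect exceeded that of each other line, by 3.50 against J82 (SE 0.38), 3.32 against RT112 (SE 0.38) and 2.26 against TCCSUP (SE 0.37) on the log2 scale (adjusted p = 9.42e-06, 1.43e-05 and 0.000346). SYN1, which contains TIMP1 on the other strand, had at most 137 counts.

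TIMP2, the inhibitor that also takes part in pro-MMP2 activation, rose in RT112 and fell in TCCSUP. Counts in RT112 were 1672 and 1712 in control and 6192 and 6455 in treated cells. TCCSUP had 10014 and 10574 against 3978 and 3827. Replicates were close to each other in both lines, and the groups did not overlap. The log2 fold change was 2.12 (SE 0.22, adjusted p = 3.24e-06) in RT112 and -1.42 (SE 0.22, adjusted p = 7.29e-05) in TCCSUP, a difference of 3.54 on the log2 scale (SE 0.31, adjusted p = 1.19e-06). In 253J counts were 3110 and 3465 against 2748 and 3710 (log2 fold change -0.07, adjusted p = 0.855). J82 had 5259 and 3079 against 5974 and 4598 (log2 fold change 0.25, adjusted p = 0.388, and 0.72, adjusted p = 0.00694, without control replicate 1).

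RT112 had the lowest TIMP2 level of the control lines (56.3 ± 2.37 CPM) and TCCSUP the highest (401 ± 6.09 CPM). After treatment the 4 lines lay between 117 and 244 CPM. Neighbors in that order were not separated (adjusted p from 0.127 to 0.252), but RT112 was above 253J (adjusted p = 0.000674) and TCCSUP (0.0129), and J82 was above 253J (0.0178). CEP295NL, a gene on the same strand within TIMP2, had 3 to 82 counts per library.

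TIMP3 binds the extracellular matrix and also inhibits some ADAM proteinases. It was among the 2 highest members per kilobase in the 3 lines that expressed it. In 253J it was at 0 under both conditions. Counts in TCCSUP were 23620 and 18970 in control and 6111 and 4183 in treated cells, a log2 fold change of -2.08 (SE 0.26, adjusted p = 1.95e-05), with no overlap. RT112 had 11069 and 12323 in control and 4539 and 8537 in treated cells. The RT112 log2 fold change of -0.63 (SE 0.25) lay at the threshold (adjusted p = 0.0503, 0.048 with no filter on low counts, and 0.00307 without treated replicate 2). J82 counts were 7047 and 7472 against 10253 and 10101, groups that did not overlap with a log2 fold change of 0.39 (SE 0.25) that did not pass (adjusted p = 0.222). The effect in TCCSUP differed from that in J82 by -2.47 (SE 0.35, adjusted p = 0.000275) and from that in RT112 by -1.45 (SE 0.35, adjusted p = 0.00748). SYN3, which contains TIMP3 on the other strand, had at most 55 counts.

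TIMP4, the member of narrowest tissue range, was low in every line and rose in J82. Counts in J82 were 100 and 61 in control and 401 and 362 in treated cells, a log2 fold change of 2.15 (SE 0.36, adjusted p = 0.000339), with no overlap. RT112 had 36 and 66 against 65 and 45, and TCCSUP had 262 and 206 against 360 and 258, with overlapping groups and log2 fold changes of 0.32 and 0.37 (adjusted p = 0.529 and 0.369). The J82 effect was larger than that in RT112 by 1.82 (SE 0.52, adjusted p = 0.0232) and than that in TCCSUP by 1.77 (SE 0.48, adjusted p = 0.0188) on the log2 scale, while the F test over the lines (0.0228) was lost without J82 control replicate 3 (0.0918) and without J82 treated replicate 1 (0.0594). SYN2, which contains TIMP4 on the other strand, had 8 and 17 counts in treated J82 and 91 and 86 in treated RT112 cells, more than TIMP4 itself in the latter.

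**Figure D3:**
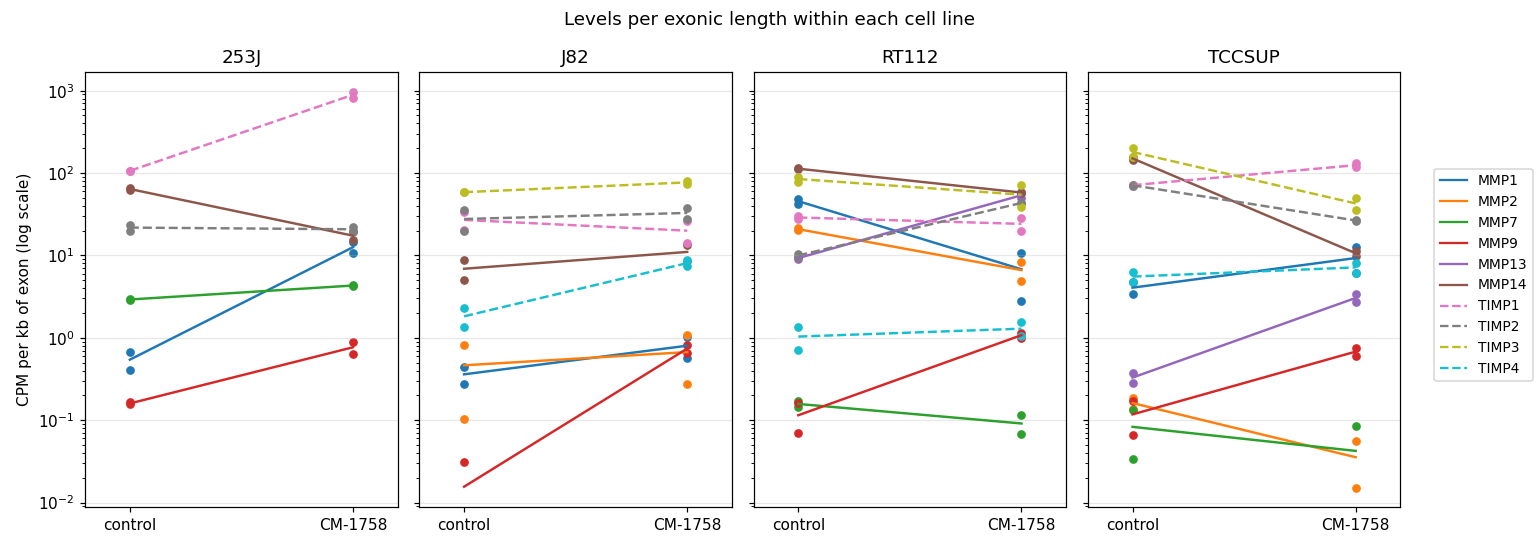
Level per kilobase of exon on a log scale, in control and CM-1758 cells of each line. Points are libraries and lines join the group means, solid for MMP and dashed for TIMP genes; genes with a group mean under 0.01 are left out. TIMP1, already the highest member in 253J control cells, climbs further there. MMP13 crosses MMP1 in RT112, and MMP14, TIMP2 and TIMP3 fall together in TCCSUP.

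The balance of MMP14 to TIMP2, taken as the ratio of their levels per kilobase in each library, was lower in treated libraries of 3 lines. In RT112 it was 11.8 and 10.8 in control and 1.35 and 1.32 in treated libraries. In TCCSUP it was 2.22 and 2.02 against 0.372 and 0.428, and in 253J 3.15 and 2.76 against 1.01 and 0.684. In J82 it was 0.246 and 0.254 in control and 0.356 and 0.309 in treated libraries. The groups did not overlap in any line, and treated J82 libraries were the higher ones. These ratios are given as a description, with no test. The summed level of the 4 TIMPs per kilobase went from 125 and 131 to 829 and 995 CPM per kb in 253J and from 350 and 307 to 216 and 187 in TCCSUP. In J82 it was 129 and 101 against 152 and 123, and in RT112 116 and 133 against 103 and 144, with overlapping groups in both. The summed level of the 6 MMPs went from 66.5 and 68.8 to 35.8 and 35.0 CPM per kb in 253J, from 193 and 185 to 117 and 135 in RT112, from 161 and 151 to 20.0 and 27.5 in TCCSUP and from 10.0 and 5.45 to 16.5 and 10.1 in J82.

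Counts over lists of related genes are given with their share of the genes tested, to be read beside the shares of all genes, which were 28.8% higher and 22.4% lower in 253J, 24% and 18.5% in J82, 27.4% and 20.2% in RT112, and 32% and 22.1% in TCCSUP. Differences between lists, or between lines in a list, were not tested. Of 17 other MMP genes, 12 were tested. In 253J 2 of these 12 were upregulated and 2 downregulated (16.7% each, median log2 fold change 0.00), and in J82 8 (66.7%) and 0 (1.51). The counts were 6 (50%) and 2 (16.7%) for RT112 (median 1.33) and 7 (58.3%) and 2 (16.7%) for TCCSUP (median 0.90). MMP10, stromelysin 2, passed in all 4 lines, with counts of 7 and 0 against 129 and 210 in 253J (log2 fold change 5.51, adjusted p = 3.9e-05). TCCSUP had 0 and 0 against 27 and 28 counts of MMP10 (at least 9.04-fold higher, adjusted p = 0.000753), RT112 had 103 and 42 against 155 and 222 (log2 fold change 1.597, adjusted p = 0.0226), and J82 had 0 and 0 against 4 and 12 (at least 2.46-fold higher, adjusted p = 0.0228). MMP17, a membrane-anchored MMP, rose in J82 (15 and 0 against 198 and 149 counts), in RT112 (13 and 19 against 177 and 131) and in TCCSUP (172 and 228 against 1054 and 927), with log2 fold changes of 4.41, 3.47 and 2.29.

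**Figure D4:**
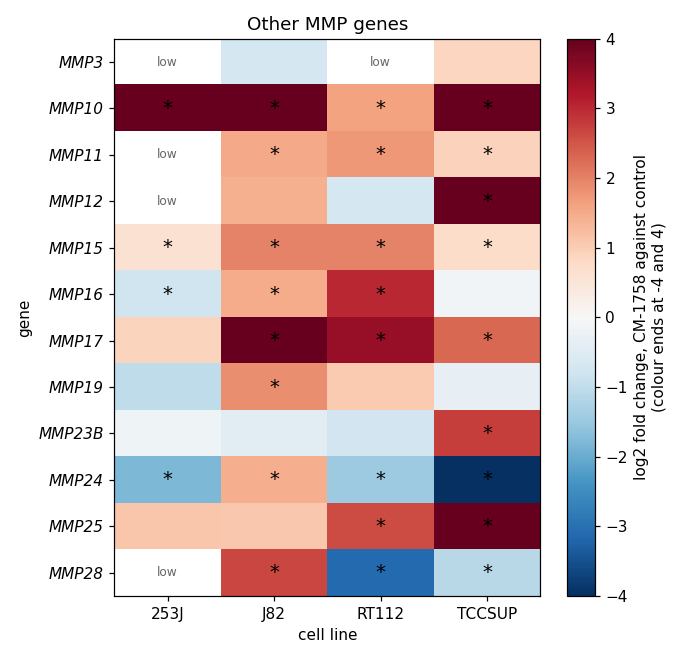
Log2 fold change with CM-1758 of the 12 other MMP genes that were tested, by cell line. Red is higher and blue lower in treated cells, a star marks an adjusted p under 0.05, and "low" marks group means of 3 counts or fewer. MMP10 is red in all 4 lines and MMP17 in all 4, starred in 3.

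MMP1, MMP7 and MMP13 lie in a cluster of 9 MMP genes on chromosome 11, in the order MMP7, MMP20, MMP27, MMP8, MMP10, MMP1, MMP3, MMP12 and MMP13. Of the 9, 6 were tested, of which 3 rose and 0 fell for 253J, 1 and 0 for J82, 2 and 1 for RT112, and 4 and 0 for TCCSUP. In RT112, MMP1 fell while MMP10, the neighbor on one side, and MMP13, at the end of the cluster, rose. The cluster therefore did not move as a unit in that line.

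Regulators of MMP activity outside the TIMPs also changed, with 14 of 16 listed genes tested. In J82 9 (64.3%) were upregulated and 0 downregulated, and in RT112 9 (64.3%) and 1 (7.14%). In 253J these were 5 (35.7%) and 6 (42.9%), and in TCCSUP 5 and 5 (35.7% each). SERPINB2, an inhibitor of the urokinase that generates plasmin, rose in TCCSUP (2151 and 2836 against 11413 and 10843 counts, log2 fold change 2.14) and RT112 (211 and 228 against 1270 and 1117, log2 fold change 2.66), with adjusted p of 1.86e-07 and 8.14e-08. From 0 and 0 it also rose to 28 and 24 counts in J82 (at least 8.14-fold, adjusted p = 7.59e-06). In 253J it reached 3 and 3, at the floor (adjusted p = 0.0106). PCSK5, a proprotein convertase, went from 0 and 0 to 107 and 152 counts in RT112 (at least 50.0-fold higher). It also rose in J82 (log2 fold change 2.22, adjusted p = 1.86e-05) and TCCSUP (2.00, adjusted p = 2.14e-05). In 253J it fell (log2 fold change -0.90, adjusted p = 0.0041). PCSK6, a related convertase, fell in RT112 (log2 fold change -1.61, adjusted p = 0.00154). It rose from 0 and 0 to 28 and 63 counts in 253J and to 27 and 24 in TCCSUP (adjusted p = 0.000388). In J82 it did not pass (adjusted p = 0.213). A2M, alpha-2-macroglobulin, which traps proteinases of many classes, fell in TCCSUP from 11397 and 14378 to 4597 and 4115 counts (log2 fold change -1.58, adjusted p = 3.54e-06) and rose from 0 counts in both control libraries of the others, to 36 and 49 in 253J (at least 13.8-fold higher, adjusted p = 1.09e-06), 18 and 16 in RT112 (at least 6.58-fold, 2.53e-05) and 8 and 5 in J82 (at least 2.04-fold, 0.00143).

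The list of 28 ADAM and ADAMTS proteinases holds relatives of the MMPs, some of which TIMP3 can inhibit. Among them, 11 rose (39.3%) and 2 fell (7.14%) in J82, and 13 (46.4%) and 3 (10.7%) in RT112. In 253J these were 6 (21.4%) and 11 (39.3%), and in TCCSUP 11 (39.3%) and 10 (35.7%). ADAM28 went from 0 and 0 to 38 and 61 counts in 253J and from 7 and 0 to 118 and 130 in TCCSUP. In J82 it went from 0 and 0 to 25 and 38 (at least 9.78-fold higher, adjusted p = 0.000198). ADAM33 rose in J82 (log2 fold change 2.90) and TCCSUP (2.04), and went from 0 and 0 to 8 and 6 counts in RT112 (adjusted p = 0.00503). ADAMTS10 fell in 253J from 1050 and 1226 to 110 and 100 counts (log2 fold change -3.46, adjusted p = 2.97e-06) and in TCCSUP (-1.14, adjusted p = 0.0108). In RT112 it went from 0 and 0 to 25 and 26 (at least 9.86-fold higher, adjusted p = 0.000104). ADAMTS17 rose in RT112 from 17 and 7 to 199 and 178 counts (log2 fold change 4.18, adjusted p = 3.88e-06). In TCCSUP it went from 0 and 0 to 55 and 49 (at least 17.1-fold higher, adjusted p = 3.94e-06).

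Of 22 genes for MMP substrates, 6 rose (27.3%) and 4 fell (18.2%) in J82, and 9 (40.9%) and 5 (22.7%) in RT112. In 253J 4 rose (18.2%) and 8 fell (36.4%), and 3 rose (13.6%) and 13 fell (59.1%) in TCCSUP, where the median log2 fold change was -1.16. COL1A1, a chain of type I collagen, fell in TCCSUP from 22633 and 28203 to 2679 and 2487 counts (log2 fold change -3.32, adjusted p = 1.54e-08). It also fell in 253J (-0.76, adjusted p = 0.00446) and rose in J82 (2.27) and RT112 (2.18). DCN, the collagen-binding proteoglycan decorin and also one of the fibroblast markers above, fell in TCCSUP from 6858 and 7416 to 665 and 580 counts (log2 fold change -3.54, adjusted p = 2.21e-07). It rose in RT112 from 4 and 3 to 40 and 40 counts (log2 fold change 3.68, adjusted p = 0.000279) and in 253J from 0 and 0 to 8 and 7 (adjusted p = 0.0142). SDC1, a cell-surface proteoglycan shed by MMPs, fell in all 4 lines, with log2 fold changes of -3.16 in 253J, -2.66 in TCCSUP, -1.73 in RT112 and -0.69 in J82. COL5A1, a chain of type V collagen, rose in 253J (4.66) and TCCSUP (3.91).

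Transcription factors and inducers of MMP genes moved both ways, with 13 of 26 up (50%) and 3 down (11.5%) in RT112 and 8 up (30.8%) and 9 down (34.6%) in TCCSUP. In 253J, 7 (26.9%) rose and 4 (15.4%) fell, and in J82 6 (23.1%) and 5 (19.2%). FOSB, a subunit of AP-1, rose in 253J (28 and 36 against 319 and 259 counts, log2 fold change 3.16), in RT112 (19 and 29 against 106 and 312, 3.32) and in TCCSUP (0 and 0 against 22 and 17, at least 6.39-fold). CXCL8, a neutrophil chemokine, rose in RT112 (76 and 175 against 1949 and 3874 counts, log2 fold change 4.74) and TCCSUP (20 and 40 against 470 and 406, 3.84). TNF, an inflammatory cytokine, went from 0 and 0 to 30 and 46 counts in RT112 and from 5 and 0 to 34 and 48 in J82 (adjusted p = 0.00893). FGF2, a growth factor, fell in TCCSUP (log2 fold change -2.55, adjusted p = 2.79e-07), J82 (-0.64, adjusted p = 0.0162) and 253J (-0.51, adjusted p = 0.0396). It went from 0 and 0 to 72 and 45 counts in RT112.

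The genes most like a member in pattern were found by Pearson's r of log2 CPM over the 16 libraries, which fall into 4 lines, so that r mostly ranks differences between lines. Among the nearest were ZNF544 and FLRT2 for TIMP3 (both r = 0.993), TUB and C5orf63 for TIMP4 (0.988 and 0.98), BLCAP and WNT10A for MMP2 (0.981 and 0.974), MEAK7 for MMP13 (0.961) and CACNA1G and C12orf60 for MMP9 (0.962 and 0.943). Next came PXDN and HOXA5 for MMP7 (0.953 and 0.935), RPL23AP82 and NDUFAF7 for TIMP1 (0.953 and 0.946) and BACE2 and POFUT2 for MMP14 (0.943 and 0.933). Those for TIMP2 were HLA-DOB and NAV1 (0.911 and 0.868), and those for MMP1 were SAYSD1 and ST3GAL5 (0.91 and 0.904). Among members, TIMP3 and TIMP4 were the pair most alike (r = 0.926), both being at 0 in 253J, and MMP7, highest in 253J, ran opposite to them (r = -0.922 and -0.928).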

How the data were processed

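Per the study's methods, stranded total RNA libraries depleted of ribosomal RNA were sequenced at a service provider. The authors deposited 1 table of raw counts, whole numbers of reads per gene symbol for each library. HISAT2, StringTie and GRCh37 are named in the submitters' processing notes without versions or roles, and the annotation, the counter and its use of strand are not given in the sources used here. StringTie-derived counts may be estimates, and reads of overlapping genes may be split.

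Every column matched 1 sample, and groups and replicate numbers were taken from the labels. Counts were filtered with filterByExpr over the 8 groups, TMM-normalized and fitted with the quasi-likelihood test of edgeR 4.0.16 (R 4.3.3, 8 residual degrees of freedom) in 1 model of group means, with Benjamini-Hochberg adjustment over 21297 genes within each contrast and calls at an adjusted p under 0.05. Differences between lines were F tests, followed by pairwise contrasts. The script was tested on simulated data. Where control libraries were all at 0, folds are against a floor of 3 counts per library; with 1 to 3 control counts, an exact Poisson-based interval of the ratio is given. Intervals and floors cover counting error only, and library totals set this precision. Levels per kilobase use exon lengths of GENCODE v29, a build other than that of the counts.

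The members and lists were chosen with earlier results of these data known. Besides the members, the genes named are, for each list, at most 4 past the study's threshold in at least 2 lines, by mean absolute log2 fold change, and the 2 genes most correlated with each member among those with a mean log2 CPM above 0. Of these, 2 genes are not reported here. Alternatives were RLE scaling, library size alone, no filter, DESeq2 1.42.0, edgeR on each line alone, 7 small noncoding RNA genes left out, a replicate block and each library left out.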

Additional observations from a re-analysis of the deposited data

Results flagged for a closer look

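The effect of CM-1758 differed between cell lines, by the F test of the interaction with adjusted p from edgeR, for 7 members. For MMP14 the adjusted p was 8.35e-07, with log2 fold changes from -3.83 in TCCSUP to 0.68 in J82. For TIMP2 it was 3.83e-06, with 2.12 in RT112 and -1.42 in TCCSUP. For TIMP1 it was 1.06e-05, with 3.07 in 253J and -0.43 in J82. For MMP1 it was 1.58e-05, with 4.54 in 253J and -2.74 in RT112. For TIMP3 it was 0.000598, with -2.08 in TCCSUP and 0.39 in J82, and 253J had 0 counts. For MMP13 it was 0.0152 and for TIMP4 0.0228. As given above, that of MMP13 rests on 253J, where both control libraries were at 0. That of TIMP4 was lost without J82 control replicate 3 and without J82 treated replicate 1. The MMP13 fold in 253J is known only as a lower bound, so the size of that difference was not measured. Groups of 2 libraries are too small for an outlier test.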

How the results depend on the processing

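The cause of each change below was not tested. Of 35 member values with a fold, RLE scaling and leaving out 7 small noncoding RNA genes changed the direction or call of 0. Library size alone reversed TIMP2 in 253J (log2 fold change 0.2026, adjusted p = 0.496, neither value passing). Nothing in the labels says that the same replicate number marks paired samples, and numbers were not taken to pair them; deviations from group means correlated at 0.0173 in TCCSUP, 0.0427 in RT112, 0.0529 in 253J (1 shared number) and 0.218 in J82. With the replicate block, 3 residual degrees of freedom were left, members lower in J82 went from 0 to 1 (TIMP1, log2 fold change -0.4562, adjusted p = 0.0151), MMP9 in 253J had 1.94 (adjusted p = 0.0951), which leaves 3 members higher there, and MMP2 in TCCSUP (0.0115), TIMP3 in RT112 (0.00338) and the MMP2 interaction (0.00214) passed; the control-level F test could not be fitted with the block, nor the tests between lines with each line alone. With each line alone, MMP2 in TCCSUP passed (0.0178). Leaving out each library in turn leaves 1 library in an arm, assumed to vary like the other groups. Then members higher in J82 numbered 2 to 5 (5 without control replicate 1, with MMP2 and TIMP2 added, and 2 without control replicate 3; members at the floor are counted too), lower in J82 0 to 1, past the study's threshold in J82 1 to 2 (1 without control replicate 3) and higher in TCCSUP 2 to 3 (2 without either control library). The log2 fold changes that changed sign had these ranges, MMP2 in J82 (-0.67 to 2.68), TIMP2 in J82 (-0.11 to 0.72), TIMP2 in 253J (-0.18 to 0.05548), TIMP4 in RT112 (-0.07138 to 0.85) and MMP7 in TCCSUP (-5.44, with the remaining treated library at 0, to 0.27). MMP7 outside 253J, MMP9 in J82 and MMP2 outside RT112 are limited by their low counts.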
